A study of Mus musculus with 12 samples.

Results

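The genes of phospholipid remodelling and phosphatidylcholine synthesis described here are 10: Lpcat1, Lpcat2, Lpcat3, Lpcat4, Mboat1, Mboat2, Mboat7, Chka, Pcyt1a and Pcyt2. They were chosen by their role, as a named set, with earlier results of these data known. The table measured 19937 genes with a probe set naming a single gene. All 10 were found, each with 1 such probe set, and 8 were bright enough to be tested among 11962 genes. The other two, Mboat1 and Mboat2, lay below the brightness limit, a geometric mean intensity of 85.6 set at the 40th percentile of all genes.

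The series compared 12 Affymetrix whole-transcript arrays of total RNA from the small intestine of male wildtype FVB mice. The Control HF group (6 arrays) ate a control high-fat diet and the Low P/S group (6 arrays) ate a diet in which polyunsaturated fat was low relative to saturated fat, each for 8 weeks. The labels give all animals an age of 8 weeks, without saying whether at the start or the end of the diet, and the series title ties the saturated-fat diet to the excretion of cholesterol through the intestine. The arrays of a group are called biological replicates in the design text. Whether RNA was pooled, which part of the small intestine was taken and when the mice last ate are not given in the sources used here. Each difference is a log2 value, the low P/S mean less the control mean. A value after ± is the limma standard error, and a gene passed when its Benjamini-Hochberg adjusted p over all genes tested was under 0.05.

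Phosphatidylcholine, the main membrane lipid of the enterocyte and of the surface of chylomicrons, is made from choline in the CDP-choline pathway, in which choline kinase, a cytidylyl transferase and a final transferase act in turn. A parallel pathway makes phosphatidylethanolamine. The fatty acids of a finished phospholipid are then exchanged in the Lands cycle: a phospholipase A removes a fatty acid and a lysophospholipid acyltransferase puts another in its place. In the intestine LPCAT3 is known for placing polyunsaturated fatty acids in phosphatidylcholine.

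Transcripts of the acyltransferase genes Lpcat2, Lpcat3 and Lpcat4 and of the choline kinase gene Chka were higher on the low P/S diet, by 1.23-fold to 1.42-fold. Pcyt2, of phosphatidylethanolamine synthesis, also passed, but at the edge of the threshold. Of the 8 tested members 5 rose, 0 fell and 3 did not pass, and 0 were lower at an unadjusted limma p under 0.05. By the exact permutation test per gene, adjusted over all genes, 4 rose and 0 fell. Of all genes tested 25.7% passed, 17.8% as higher and 7.87% as lower. The median difference was 0.29 over the 8 tested members and 0.02 over all genes tested. Since the members were chosen with earlier results of these data known, these counts and medians describe the set and do not test it. Lpcat1, Mboat7 and Pcyt1a, the gene of the rate-limiting enzyme of the CDP-choline pathway, did not pass. In this bulk tissue, a change in the number of cells of a type and a change of RNA per cell cannot be told apart.

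**Figure D1:**
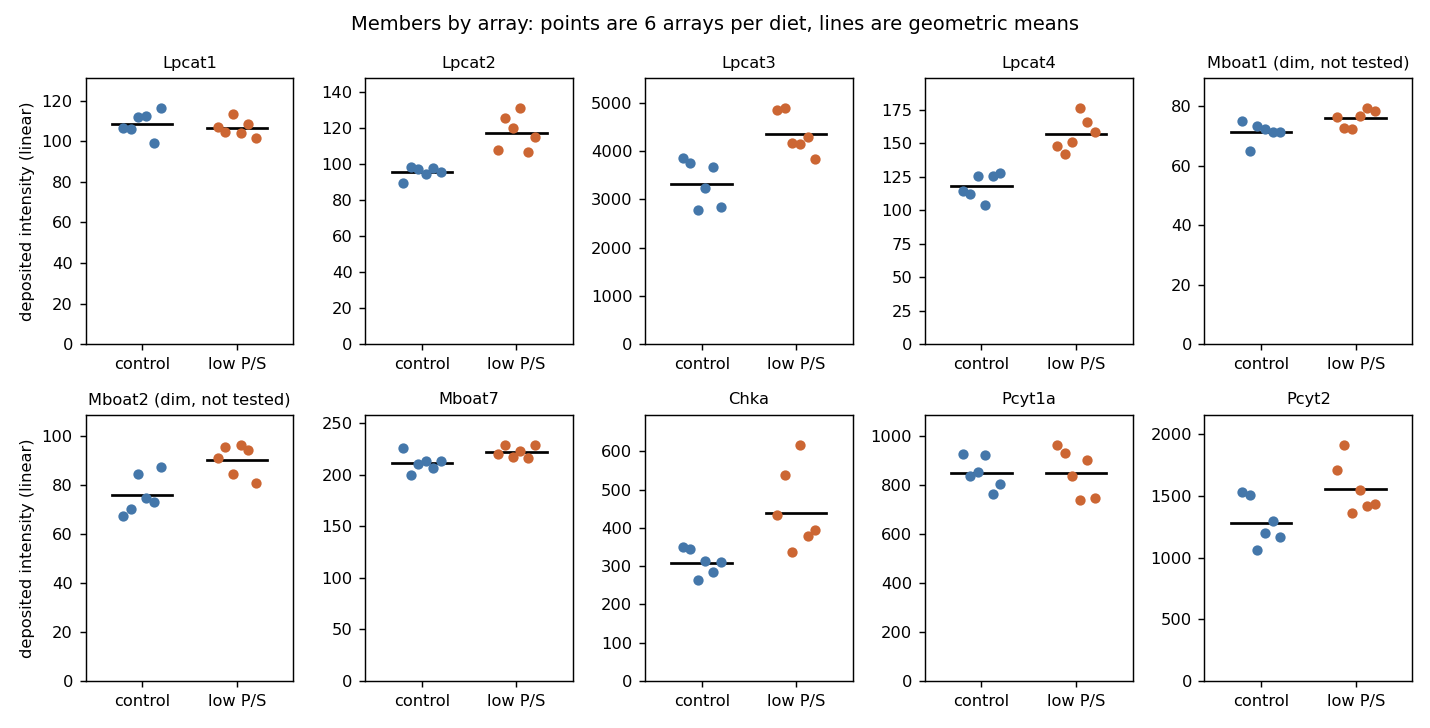
Deposited intensity on a linear axis from 0 for each of the 10 genes, with 1 point per array, 6 arrays per diet, and a line at the geometric mean. All 6 low P/S points lie above all 6 control points for Lpcat2 and Lpcat4, while the points of Pcyt1a and Lpcat1 intermix; Mboat1 and Mboat2 were too dim to be tested.

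The upstream stretches of 4 members are shown so that acyltransferase genes that rose can be read beside Pcyt1a, which did not pass. They come from RefSeq (GRCm38.p6, plus strand, 5′ to 3′), which held a start for 9 of the 10 members and none for Pcyt2. The stretches of Lpcat4 and Pcyt1a reach the base before the first listed start; those of Lpcat2 and Lpcat3 stop short of it, and that of Lpcat3 leaves out the CCAAT box nearest to its start. Capitals mark the CCAAT box (CCAAT), the GC box (GGGCGG) and TCACNCCAC, a form of the sterol regulatory element, on either strand, with overlapping matches joined. Lpcat2 (chr8:92855083-92855312), Lpcat3 (chr6:124662854-124663093) and Lpcat4 (chr2:112239591-112239840) passed as higher on the low P/S diet, and Pcyt1a (chr16:32430671-32430920) did not pass.
Lpcat2: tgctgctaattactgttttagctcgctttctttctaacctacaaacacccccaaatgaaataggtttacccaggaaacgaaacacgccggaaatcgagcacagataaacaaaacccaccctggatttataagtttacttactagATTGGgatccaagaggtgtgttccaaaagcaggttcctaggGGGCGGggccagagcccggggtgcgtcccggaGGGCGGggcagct
Lpcat3: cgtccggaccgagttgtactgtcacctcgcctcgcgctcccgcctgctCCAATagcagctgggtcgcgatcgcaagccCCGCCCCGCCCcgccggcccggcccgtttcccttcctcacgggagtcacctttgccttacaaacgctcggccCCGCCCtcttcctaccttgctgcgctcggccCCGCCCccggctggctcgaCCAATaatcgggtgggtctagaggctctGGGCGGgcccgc
Lpcat4: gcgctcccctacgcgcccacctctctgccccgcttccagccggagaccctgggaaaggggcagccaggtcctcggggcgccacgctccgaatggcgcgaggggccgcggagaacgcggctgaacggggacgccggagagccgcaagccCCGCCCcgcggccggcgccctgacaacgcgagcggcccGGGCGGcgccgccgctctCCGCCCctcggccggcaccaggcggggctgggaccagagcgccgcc
Pcyt1a: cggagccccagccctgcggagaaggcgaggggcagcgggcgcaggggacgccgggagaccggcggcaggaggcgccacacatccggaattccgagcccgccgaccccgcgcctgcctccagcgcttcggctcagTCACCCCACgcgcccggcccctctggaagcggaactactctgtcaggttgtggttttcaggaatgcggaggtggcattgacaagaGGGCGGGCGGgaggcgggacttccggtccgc

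In the 250 bases upstream of its listed start, Lpcat3 held 3 CCAAT boxes and 5 GC boxes. Lpcat2 held 1 and 2 of these, Chka held 2 of each, and Lpcat4 held 3 GC boxes with no CCAAT box. GC boxes were also found in members that did not pass: 2 in Pcyt1a (first start), 2 in Lpcat1 and 1 in Mboat7, with no CCAAT box. Of the members too dim to test, Mboat1 held 1 of each and Mboat2 held 2 CCAAT boxes and 6 GC boxes. Pcyt1a was the member with a match to TCACNCCAC, which lay at position -116 from the first of its 3 listed starts and also within the window of the second. Of all 32851 promoter entries, the same window held CCAAT in 33.8%, GGGCGG in 32.7% and TCACNCCAC in 1.05%. The E-box CACGTG (6.02% of entries) and AGGTCA, a motif of nuclear receptors (14.0%), were found in none of the members' windows. These matches describe the letters of short windows, and binding was not measured.

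Lpcat3 encodes the acyltransferase that places linoleic and arachidonic acid in phosphatidylcholine and is a known target of the liver X receptor. Its intensity (probe set 10541695) was 2775 at the lowest, 3455 at the median and 3856 at the highest in the control arrays, against 3836, 4237 and 4897 on the low P/S diet. The groups overlapped by a narrow margin: low P/S array 6 lay just below control array 1, and the other 5 low P/S arrays lay above every control array. Lpcat3 rose by 0.39 ± 0.09, or 1.31-fold (95% interval 1.15 to 1.49), with a limma adjusted p of 0.00508. Control arrays 1 and 2 held the highest control values of Lpcat3. Leaving out both could only raise the difference, so the fit without them does not test the call. It gave 0.48 ± 0.09, or 1.40-fold (limma adjusted p = 0.00115).

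Lpcat4 encodes an acyltransferase that acts on several lysophospholipids and favours oleic acid. Its intensity ran from 104 over a median of 120 to 128 in the control arrays, and from 142 over 155 to 176 on the low P/S diet. Every low P/S array lay above every control array, as was the case for 6.86% of all genes tested. The rise was 0.41 ± 0.07, or 1.33-fold (95% interval 1.21 to 1.46, limma adjusted p = 0.000407). Lpcat4 had the smallest p of the members, though its brightness was only at the 57.6th percentile of all genes.

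Lpcat2, whose enzyme makes phosphatidylcholine and platelet-activating factor, is known from macrophages and other inflammatory cells. Its control values lay close together, from 89.4 over a median of 96.3 to 98.4, and the low P/S values spread wider, from 106 over 117 to 131. The groups did not overlap for Lpcat2 either. With Lpcat4, 2 of the 8 tested members were thus separated by diet as higher, beside 6.86% of all genes tested. Lpcat2 rose by 0.30 ± 0.06, or 1.23-fold (95% interval 1.13 to 1.33, limma adjusted p = 0.00139). The gene was dim, at the 49.1th percentile of brightness, above the limit for testing.

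Markers of macrophages moved with Lpcat2. All 6 tested markers of 8 were higher on the low P/S diet, with Csf1r at 1.45-fold (limma adjusted p = 0.000105) and C1qc at 1.48-fold, while Adgre1 and Cd163 were too dim to test. The summed intensity of the 8 markers was 909 to 1086 in the control arrays and 1122 to 1473 on the low P/S diet, so these groups did not overlap. Low P/S arrays 2 and 4 held the 2 highest sums of the macrophage markers and also the 2 highest values of Lpcat2. The part of these cells in the Lpcat2 result was not tested.

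**Figure D2:**
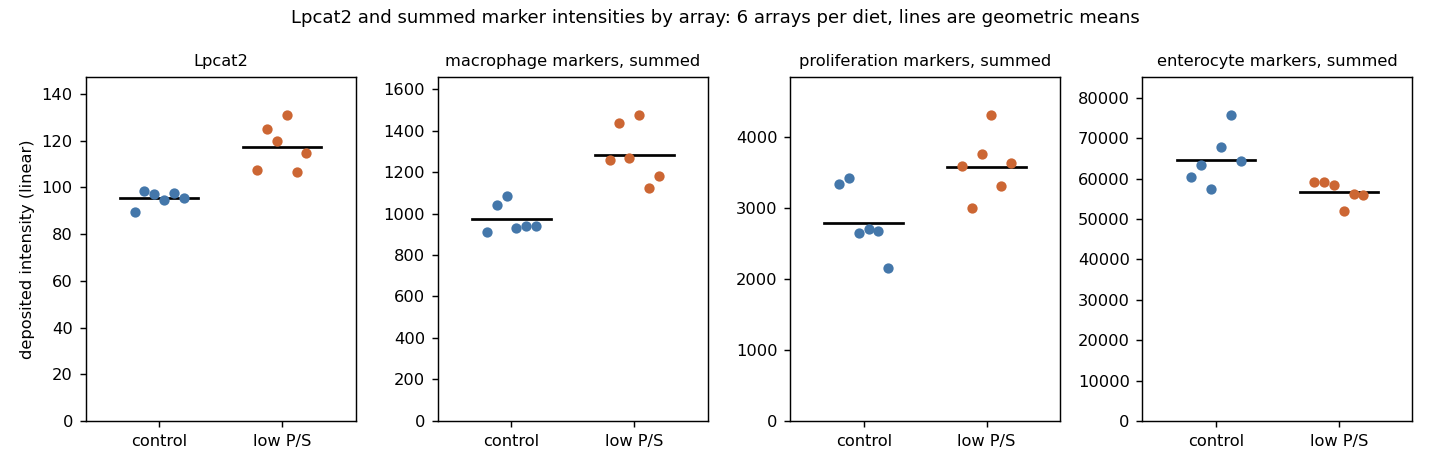
Intensity of Lpcat2 and summed intensities of the macrophage, proliferation and enterocyte marker genes, each on its own linear axis from 0, with 1 point per array and a line at the geometric mean of 6 arrays. Lpcat2 and the macrophage markers are higher in every low P/S array than in every control array; the other two sums overlap between the diets.

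Lpcat1 encodes an acyltransferase that prefers saturated fatty acids and is best known for making lung surfactant. Its values were 99.1, 109 and 116 (lowest, median and highest) in the control arrays and 102, 106 and 113 on the low P/S diet. The diets intermixed, and the difference was -0.03 ± 0.05 (95% interval -0.13 to 0.08, limma adjusted p = 0.706). A change of Lpcat1 intensity as large as the rise of Lpcat2 lay outside that interval. Lpcat1 was dim too, at the 49.8th percentile of brightness, and the interval covers the measured intensity only.

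Mboat7 encodes the acyltransferase that places arachidonic acid in phosphatidylinositol. Its intensity ran from 200 over 212 to 226 in the control arrays and from 216 over 221 to 229 on the low P/S diet. All 6 low P/S arrays lay above the control median, but control array 1 exceeded 4 of them, and the difference of 0.07 ± 0.04 did not pass (limma adjusted p = 0.232). With quantile normalization it was 0.02.

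Mboat1 and Mboat2 encode acyltransferases that place oleic acid in phosphatidylethanolamine, phosphatidylserine and phosphatidylcholine. Both were dim, with geometric mean intensities of 71.4 and 76.1 for Mboat1 and 75.9 and 90.3 for Mboat2 on the control and the low P/S diet. In a fit with no brightness limit, Mboat1 had a difference of 0.09 ± 0.04 (limma adjusted p = 0.186). Mboat2 had 0.25 ± 0.07 in that fit and passed there (limma adjusted p = 0.0187). Its control values ran from 67.5 over 73.9 to 87.5 and its low P/S values from 81.0 over 92.6 to 96.5, so that 4 low P/S arrays lay above every control array.

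Chka encodes the choline kinase that starts the CDP-choline pathway. It had the largest difference of the members, with control values of 264, 312 and 349 (lowest, median and highest) and low P/S values of 337, 415 and 618. It was also the most uneven member on the low P/S diet: the standard deviation there was 0.33 on the log2 scale against 0.16 in the control arrays. Low P/S array 3 lay within the control range, and arrays 4 and 2 stood highest. Chka rose by 0.51 ± 0.12, or 1.42-fold (95% interval 1.19 to 1.70, limma adjusted p = 0.00725). Without low P/S array 4 the difference was 0.41 (limma adjusted p = 0.0116).

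Pcyt1a encodes the cytidylyl transferase for phosphocholine that sets the pace of the CDP-choline pathway. It ran from 765 over 845 to 929 in the control arrays and from 740 over 871 to 965 on the low P/S diet. The lowest and the highest of the 12 values were both low P/S arrays. The difference of Pcyt1a was -0.00048 ± 0.07, with a 95% interval from -0.16 to 0.16 (limma adjusted p = 0.998). For the values as deposited, that interval leaves out a change of measured intensity beyond 1.11-fold in either direction. The sign of the difference turned with the scaling, at -0.07 with quantile normalization and 0.01 with median centring, and it passed in neither.

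Pcyt2 encodes the cytidylyl transferase for phosphoethanolamine, its counterpart in phosphatidylethanolamine synthesis. Control values were 1059, 1248 and 1530 (lowest, median and highest), and low P/S values were 1360, 1492 and 1914. The groups overlapped, since control arrays 1 and 2 reached the level of the middle low P/S arrays. The difference was 0.28 ± 0.10, or 1.21-fold (95% interval 1.05 to 1.40), and its limma adjusted p of 0.0487 lay just under the threshold. The call ended in 7 of the 12 fits that left out 1 array, in turn control arrays 3, 4, 5 and 6 and low P/S arrays 1, 2 and 4, with a highest adjusted p of 0.113. Median centring (0.0786), no brightness limit (0.0648), an ordinary variance per gene (0.112) and the exact permutation test (0.114) also gave adjusted p-values above it. Control arrays 1 and 2 held the highest control values of Pcyt2, so leaving out both could only raise the difference. Without them it was 0.40 ± 0.09 (limma adjusted p = 0.00476), a fit that does not test the call.

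**Figure D3:**
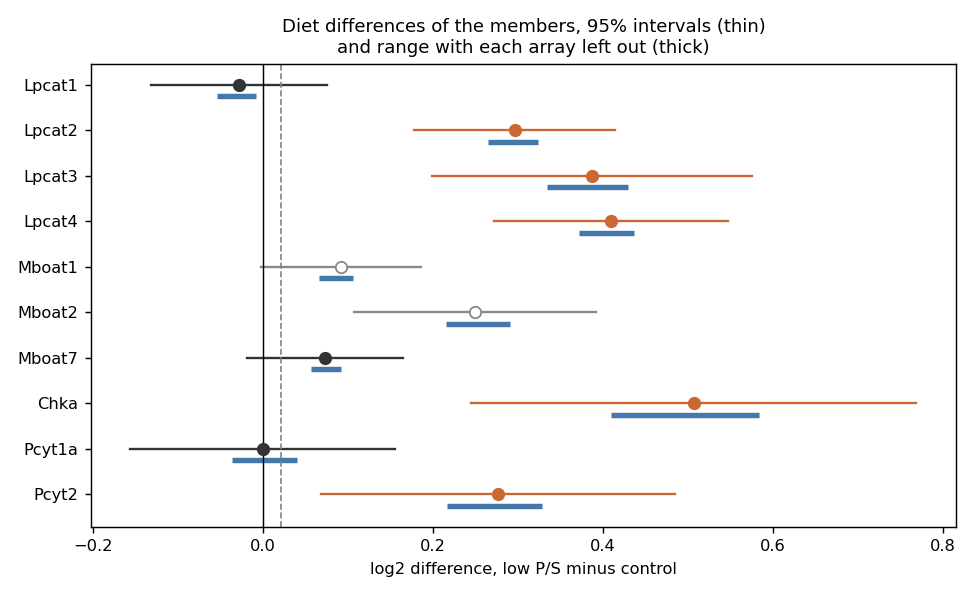
Log2 difference (low P/S minus control) of each member with its 95% interval as a thin line and, as a thick line, the range over 12 fits that each left out 1 array; orange marks genes that passed, and open points are dim genes with the interval of a fit without the brightness limit. The intervals of Lpcat2, Lpcat3, Lpcat4, Chka and Pcyt2 lie above 0, that of Pcyt2 closest to it, and those of Lpcat1, Mboat7 and Pcyt1a include 0; the dashed line is the median of all genes tested, 0.02.

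Whether related members changed unequally was tested on their log2 ratio within each array, with an exact two-sided permutation test of 6 against 6 arrays, adjusted over 5 pairs. The pairs were picked by role, with earlier results of these data known. A further planned pair, Chka and Chkb, was not run and is not counted in the adjustment. The ratio of Lpcat1 to Lpcat2 was lower on the low P/S diet by 0.32 (exact p = 0.00433, adjusted p = 0.0216): it lay between 0.02 and 0.29 in the control arrays and between -0.33 and 0.03 in the low P/S arrays. The ratio of Lpcat3 to Mboat7 was higher by 0.31 (exact p = 0.0195, adjusted p = 0.0487, just under the threshold for the 5 pairs run). That call ended in 10 of 12 tests that left out 1 array, with adjusted p-values up to 0.0974. It held without control array 2 and without low P/S array 6.

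The ratio of Lpcat3 to Lpcat4 differed by -0.02 between the diets (exact p = 0.885, adjusted p = 0.885), though its standard deviation was 0.23 in the low P/S and 0.28 in the control arrays. Control arrays 3 and 6 were the 2 lowest for Lpcat3 and were among the 3 highest control arrays for Lpcat4. The ratio of Pcyt1a to Pcyt2 was lower by 0.28 (exact p = 0.0433) and did not pass after adjustment (adjusted p = 0.0722). The ratio of Mboat1 to Mboat2, both dim, was lower by 0.16 (exact p = 0.0801, adjusted p = 0.100).

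**Figure D4:**
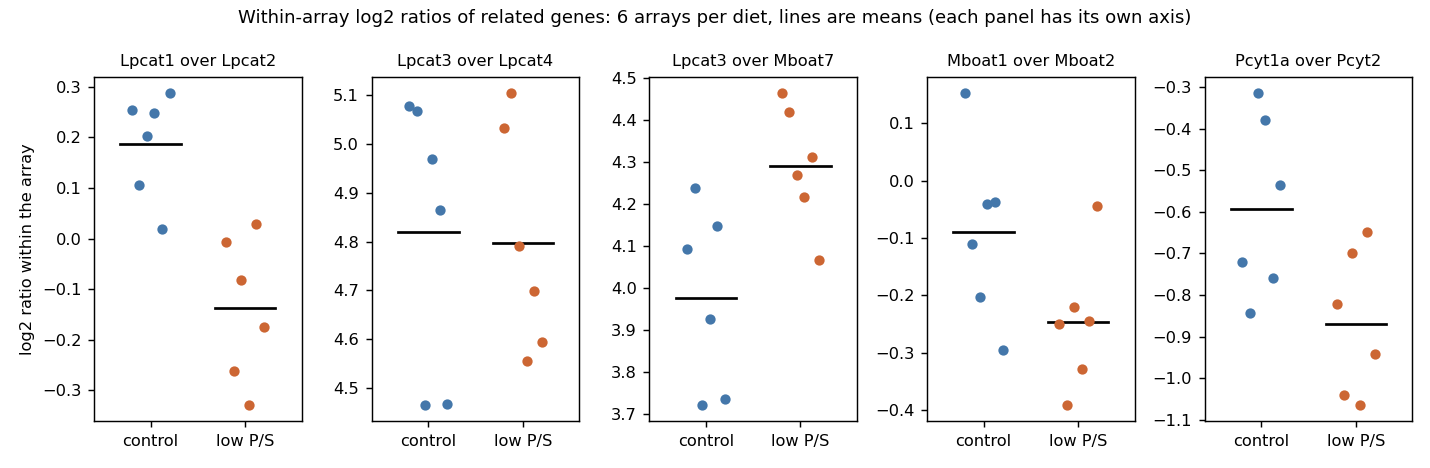
Log2 ratio of 2 related genes within each array, on an axis of its own per pair, with 1 point per array and a line at the mean of 6 arrays. The Lpcat1 to Lpcat2 ratio falls from between 0.02 and 0.29 in control arrays to between -0.33 and 0.03 in low P/S arrays, while the Lpcat3 to Lpcat4 ratio overlaps widely between the diets.

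The rest of phospholipid metabolism was read from 8 lists with 82 tested genes, of which 18 rose, 9 fell and 55 did not pass. That is 32.9% passing, beside 25.7% of all genes tested. In the choline and ethanolamine branch, which surrounds Chka, Pcyt1a and Pcyt2, 1 of 9 tested genes rose, 1 fell and 7 did not pass (median difference 0.02). The transferase genes that finish phosphatidylcholine had differences near 0, with 0.02 ± 0.07 for Cept1 and -0.04 ± 0.07 for Chpt1. Pemt, which makes phosphatidylcholine by methylation, had -0.0029 ± 0.06. These 3 genes, none of which passed, were picked for their role after their values were seen. The choline transporter gene Slc44a1 was 1.17-fold lower (limma adjusted p = 0.0412) and its relative Slc44a3 1.10-fold higher (0.04998). Both calls ended in 9 of the 12 fits that left out 1 array. Leaving out control array 2, control array 6 or low P/S array 5 kept the call of Slc44a1, and for Slc44a3 these were control arrays 1 and 5 and low P/S array 3. The probe set of Chkb, the other choline kinase gene, names several genes and was not used here.

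Among 7 other tested acyltransferase genes 3 rose, 0 fell (0 also at an unadjusted limma p under 0.05 and by the exact test) and 4 did not pass, with a median difference of 0.07. Agpat2 and Agpat3, which make phosphatidic acid from its lyso form, rose 1.65-fold and 1.29-fold, and their relative Agpat5 rose 1.31-fold (limma adjusted p = 0.000487, 0.00377 and 0.00157). Agpat2 had 2162 to 3218 in the low P/S arrays against 1382 to 1858 in the control arrays, and its log2 difference of 0.72 ± 0.12 exceeded that of Chka.

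Phospholipases A and lysophospholipases, which open the Lands cycle, had 7 of 23 tested genes higher, 1 lower and 15 not passing (median difference 0.04). By the exact permutation test per gene, adjusted over all genes, 4 were higher and 2 were lower. Abhd3, which cleaves phosphatidylcholine with short or oxidized chains, rose 1.60-fold, from values of 464 to 653 in the control arrays to 807 to 989 on the low P/S diet (limma adjusted p = 2.34e-05). Pla2g4a, the cytosolic phospholipase that releases arachidonic acid, rose 1.31-fold (0.00370), and the calcium-independent Pnpla8 rose 1.26-fold (0.00686). Pla2g7, whose secreted enzyme breaks down platelet-activating factor and is made by macrophages, rose 1.32-fold (0.00813), though not by the exact permutation test (adjusted p = 0.0504). The macrophage markers given beside Lpcat2 moved with Pla2g7 too, and their part was not tested. Abhd12, a lysophosphatidylserine lipase gene, was 1.37-fold lower in groups that did not overlap (limma adjusted p = 2.34e-05).

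The branch of acidic phospholipids, which supplies the substrate of Mboat7, had 3 of 8 tested genes higher, 2 lower and 3 not passing (median difference 0.06). Cdipt, the phosphatidylinositol synthase gene, was 1.43-fold lower, at 914 to 1033 in the low P/S arrays against 1305 to 1499 in the control arrays (limma adjusted p = 6.14e-06). Cds2, which makes the CDP-diacylglycerol that Cdipt uses, was 1.12-fold lower (0.0177). Its brighter relative Cds1, named after its values were seen, did not pass (difference 0.06, limma adjusted p = 0.423). Geometric mean intensities on the control and the low P/S diet were 1949 and 2031 for Cds1 and 400 and 356 for Cds2. The cardiolipin synthase gene Crls1 rose 1.35-fold (0.000772) and Pgs1, which starts the same route, 1.17-fold (0.00822). Ptpmt1, the phosphatase between them, rose 1.12-fold (0.0358), a call that ended in 8 of the 12 fits that left out 1 array and was kept on leaving out either of control arrays 1 and 6 or of low P/S arrays 3 and 6. Ptpmt1 also did not pass with quantile normalization, median centring or the exact test. Of the same route, Tamm41 (difference 0.05, limma adjusted p = 0.670) and Taz (0.05, 0.616) did not pass; both were named after their values were seen.

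Ether phospholipid synthesis and breakdown split, with 2 of 7 tested genes higher, 2 lower and 3 not passing (median difference 0.12). Gnpat, of the first peroxisomal step, rose 1.15-fold (limma adjusted p = 0.00611). Far2, which makes fatty alcohols, rose 1.20-fold (0.0255), but the call ended on leaving out either of control arrays 4 and 6 or of low P/S arrays 4 and 5, and with quantile normalization, an ordinary variance per gene or the exact test. Agmo, which cleaves alkyl ether lipids, was 1.46-fold lower, at 1521 to 1842 in the low P/S arrays against 2142 to 2681 in the control arrays (4.83e-05). Tmem86b, a lysoplasmalogenase gene, was 1.20-fold lower (0.00390), and its groups did not overlap.

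Of 3 phosphatidylserine genes the synthase gene Ptdss2 rose 1.16-fold (limma adjusted p = 0.0130) and 2 did not pass; with quantile normalization Ptdss2 did not pass either (0.103). Of 9 phospholipase D and choline breakdown genes 0 rose (0 also at an unadjusted limma p under 0.05 and by the exact test), 2 fell and 7 did not pass. Gpcpd1, which hydrolyses glycerophosphocholine, was 1.32-fold lower (0.00304) in groups that did not overlap. Pld2 was 1.13-fold lower (0.0440), a call kept in 3 of the 12 fits that left out 1 array, those without control array 1, control array 2 and low P/S array 6. Of 16 lipid transfer and flippase genes 1 rose, 1 fell and 14 did not pass. Stard7, which carries phosphatidylcholine to mitochondria, rose 1.23-fold (0.0170) but did not pass in the exact test or with an ordinary variance, where its adjusted p reached 0.0620. Tmem30b, a flippase subunit gene, was 1.17-fold lower (0.0130). Without control array 1 this list had 4 passing genes in place of 2.

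**Figure D5:**
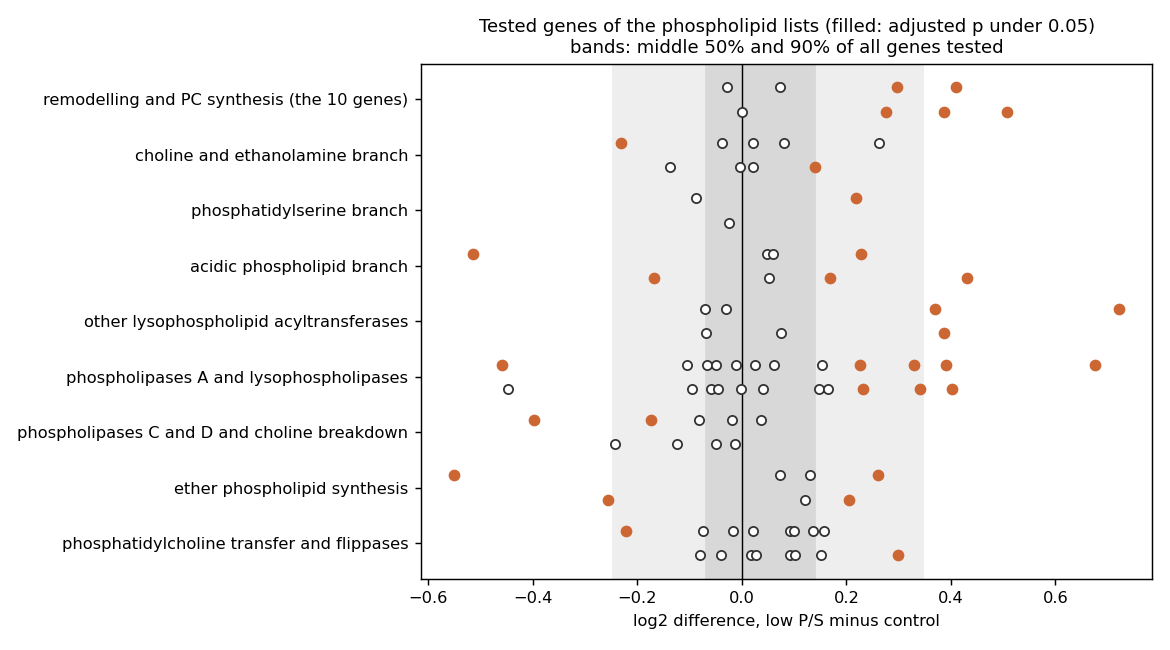
Log2 difference (low P/S minus control) of each tested gene, by list, with filled points for genes that passed; points are offset vertically only to keep them apart. Shaded bands run from the 25th to the 75th (-0.07 to 0.14) and from the 5th to the 95th percentile (-0.25 to 0.35) of all genes tested, and Lpcat3, Lpcat4 and Chka lie beyond the upper edge of the wider band.

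The array-wide values bear on small differences. Array medians of intensity ranged from 91.9 to 99.5. All 10 enterocyte markers were bright enough to be tested, and 1 was higher and 5 were lower on the low P/S diet, with a summed intensity of 57426 to 75714 in the control and 51929 to 59188 in the low P/S arrays. Krt20, 1 of the lower markers, did not pass in the exact test or in 4 of the 12 fits that left out 1 array. Epcam, also lower, did not pass with median centring, and Cdx2, the higher marker, did not pass with quantile normalization. Of 6 tested proliferation markers 5 were higher, with sums of 2154 to 3418 in the control and 3003 to 4303 in the low P/S arrays. By the exact permutation test per gene, adjusted over all genes, 1 of these 6 was higher, and Top2a, Mcm5, Mcm6 and Cdk1 did not pass. Control arrays 1 and 2, the highest control arrays for Lpcat3 and Pcyt2, also held the 2 highest control sums of the proliferation markers. The macrophage sums given beside Lpcat2 did not overlap between the diets, and low P/S arrays 2 and 4, the 2 highest for those sums, were also the 2 highest for Chka. The part of the macrophage, enterocyte and proliferation marker changes in the results of Lpcat3, Lpcat4, Chka and Pcyt2 was not tested. Of 6 smooth muscle markers 0 passed in either direction, 0 had an unadjusted limma p under 0.05 and 0 passed the exact test. No tested adipose or pancreas marker passed limma, at 0 of 3 and 0 of 3, with 2 and 1 at an unadjusted p under 0.05 and 0 by the exact test.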

How the data were processed

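The deposited table gave 1 intensity on a linear scale for each of 34760 probe sets on 12 arrays, made by the authors from 500 ng of total RNA per array with the Affymetrix whole-transcript sense kit, per the labels. The summarization and normalization behind the authors' intensities are not stated by the labels or the table used here. They were taken as deposited and converted to log2, with no further normalization. Probe sets naming a single gene numbered 21640, against 1321 naming several and 11799 naming none in the platform annotation; 21553 matched RefSeq by Entrez ID. The brightest probe set stood for each gene. Genes at or above the 40th percentile of mean level (11962) were fitted in limma 3.58.1 (R 4.3.3) with diet alone, with Benjamini-Hochberg adjustment at 0.05. The members and lists were chosen with earlier results of these data known. In the other lists, up to 4 passing genes of smallest p in each direction were named. Pair ratios were tested exactly in SciPy 1.17.1. The fit was tested on simulated data. The alternatives were other scalings, filters, variance models, an exact test, a replicate block and each array left out. The number of arrays limits the precision.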

Additional observations from a re-analysis of the deposited data

Results flagged for a closer look

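Of 30 groups of 6 values examined, for the 10 members and the 5 pair ratios on each diet, 1 held a value far from its neighbours, and chance flags about 1 in 20 groups. Control array 2 had a Mboat1 intensity of 65.132, against 71.282 for the next lowest control array. The gap was 0.636 of the group's range, above Dixon's 95% critical value for 6 values. Mboat1 was too dim to be tested, and no call rests on it.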

How the results depend on the processing

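Lpcat2, Lpcat3, Lpcat4 and Chka passed in each of 12 fits that left out 1 array and under every other alternative in which they were tested; Lpcat2 and Lpcat4 lay below a brightness limit at the 60th percentile, where 3 members passed. Pcyt2 kept its direction throughout, with differences of 0.2162 to 0.3279 without 1 array, but did not pass with median centring (0.2841), with a pseudocount of 16 (0.2736), or with no brightness limit, an ordinary variance per gene or the exact test (0.2767 in each). The choline and ethanolamine list had 2 passing genes, 0 to 1 without any 1 array, 1 with quantile normalization, array weights, a trended prior or an ordinary variance, and 0 with median centring, no brightness limit or the exact test. The list of phospholipase D and choline breakdown had 2 passing genes, 1 to 2 without any 1 array, and 1 with an ordinary variance or the exact test. The transfer and flippase list had 2, with 2 to 4 without any 1 array, 1 with an ordinary variance or the exact test, and 4 without control arrays 1 and 2. With the replicate block each of these lists had 3 passing genes. The transfer and flippase list also had 3 with quantile normalization or array weights. The cause was not tested. Quantile normalization gave 1853 higher and 1596 lower genes over the array (53.7% of calls higher, against 69.4%), and moved the median of all genes from 0.02 to -0.0061.

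Deviations of same-numbered arrays correlated between -0.11 and 0.42, and 2 of 6 arrays matched their own number best. So few correlations cannot decide whether the replicate numbers pair the samples. With the number as a replicate block, 2454 genes were higher and 1076 lower, against 2132 and 942 without it. The limma adjusted p with the block was smaller for Lpcat3 (0.000383), Chka (0.00111) and Pcyt2 (0.00211). It was larger for Lpcat2 (0.00168) and Lpcat4 (0.000996). The blocked sign-flip test of the pair ratios cannot give a p below 0.03125 before adjustment; at differences of -0.3242 for Lpcat1 to Lpcat2 and 0.3145 for Lpcat3 to Mboat7 it gave an adjusted p of 0.156 for each (exact test). The latter difference was 0.2633 to 0.3666 without any 1 array. The planned ratio of Chka to Chkb was not run. No called difference changed sign under any alternative run; the differences of Pcyt1a and of the Lpcat3 to Lpcat4 ratio, which did not pass, did.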
